A study of Mus musculus with 15 samples.

Results

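The genes described here are 5 members of the neurotrophin family, found by symbol among the 45777 features of the deposited gene tables: the ligand genes Bdnf and Ntf3 and the receptor genes Ntrk2, Ntrk3 and Ngfr. All 5 were present in both tables. RNA was sequenced from the striatum of 7-week-old wild-type males of the outbred ICR stock. They descended from founder males that received 5 mg/kg methamphetamine (METH, a psychostimulant) or 10 mL/kg saline under the skin on 21 days in a row from 6 weeks of age and were then bred with untreated females. F1 mice were sons of these founders and comprised a METH lineage (n = 3) and a saline lineage (n = 4); F2 mice, sons of F1 males and untreated females, comprised a METH lineage (n = 4) and a saline lineage (n = 4). The treatment label of each F1 and F2 library names the agent of its lineage, while the protocol describes dosing of founders only. Animal numbers in the labels recur in F1 and F2 (1, 3, 6 and 7 in the saline lineage, and 2 and 9 in the METH lineage), but whether they mark descent is not stated, and fits over both generations treat the libraries as unrelated. The labels tie no mouse to a litter or founder, so p-values measure the spread between these mice only, and mice that share a founder are not independent replicates of the founder's treatment.

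Neurotrophins are secreted growth factors that keep neurons alive and tune their synapses. Each ligand has a preferred receptor tyrosine kinase: BDNF binds TrkB, the product of Ntrk2, and NT-3 (Ntf3) binds TrkC, the product of Ntrk3, while both also bind the p75 receptor encoded by Ngfr. In the striatum most BDNF protein is known to be made by cortical neurons and carried down their axons, whereas spiny projection neurons make the TrkB that receives it.

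Total counts were 32805918 to 38514778 in F1 METH and 35044343 to 37659436 in F1 saline libraries, and 31563806 to 47199267 in F2 METH and 34622167 to 50573906 in F2 saline libraries. The 14 spiny projection neuron markers summed to between 6454 and 11509 CPM (counts scaled to library size with TMM factors) in the 15 libraries. None of them had 0 reads in every library of a group. The labels call the cell type neuronal, but 10 oligodendrocyte markers summed to between 6836 and 13220 CPM and 12 astrocyte markers to between 4143 and 6590 CPM, so the libraries hold RNA of glia as well. In such bulk tissue, fewer cells of a type and less RNA per cell cannot be told apart.

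Bdnf is transcribed from several promoters, which the gene-level counts pool. RefSeq (GRCm38.p6) promoter windows, each from 250 bases before to 50 bases after a start site, were listed for 7 start sites of Bdnf. A search of both strands for TGACG, the core of the cAMP response element bound by CREB, or its reverse complement CGTCA found the core in 1 of these 7 windows. That window, on the plus strand at chr2:109692186-109692485, lies at exon IV, whose promoter is known for its response to neuronal activity, and its match begins 35 bases before the start site. It is shown with the match in capitals because Bdnf had the widest spread between libraries of the 5 members, and beneath it is the window of Slc17a7 on the plus strand at chr7:45163671-45163970, the gene whose level followed Bdnf most closely.
Bdnf exon IV: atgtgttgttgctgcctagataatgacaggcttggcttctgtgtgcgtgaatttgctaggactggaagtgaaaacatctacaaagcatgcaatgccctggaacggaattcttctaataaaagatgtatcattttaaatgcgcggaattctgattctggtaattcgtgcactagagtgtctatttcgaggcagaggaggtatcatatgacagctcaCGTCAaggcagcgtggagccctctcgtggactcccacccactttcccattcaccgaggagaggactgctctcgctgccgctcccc
Slc17a7: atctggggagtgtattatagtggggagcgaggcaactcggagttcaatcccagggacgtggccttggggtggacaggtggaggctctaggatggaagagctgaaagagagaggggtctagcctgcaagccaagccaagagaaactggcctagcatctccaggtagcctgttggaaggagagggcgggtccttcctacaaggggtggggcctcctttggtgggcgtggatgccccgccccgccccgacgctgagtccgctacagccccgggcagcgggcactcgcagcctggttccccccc
The Slc17a7 window held no TGACG or CGTCA, nor did the windows listed for Ntf3 (2 start sites), Ntrk2 (1) and Ngfr (1). Of all 32851 promoter windows of this length, 20.8% held the core, so its presence at 1 of 7 Bdnf start sites is a description of sequence only.

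On the length-corrected scale of the deposited TPM values, Ntrk2 and Ntrk3 stood far above the ligand genes. The highest level was that of Ntrk2, at 185 ± 41.6 TPM (mean ± SD, n = 15 libraries), and Ntrk3, at 80.8 ± 13.2 TPM, lay below it in 15 of 15 libraries. Ngfr averaged 3.37 ± 2.37 TPM and Bdnf 1.93 ± 2.18 TPM. These levels did not separate, since Ngfr was above Bdnf in 10 of 15 libraries. The highest Ngfr library, at 9.04 TPM, was below the lowest Ntrk3 library, at 65.8 TPM. Ntf3 averaged 0.17 ± 0.24 TPM, and Ntf5, the gene of NT-4, had 8 reads in all and was at 0 in 13 of 15 libraries.

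**Figure D1:**
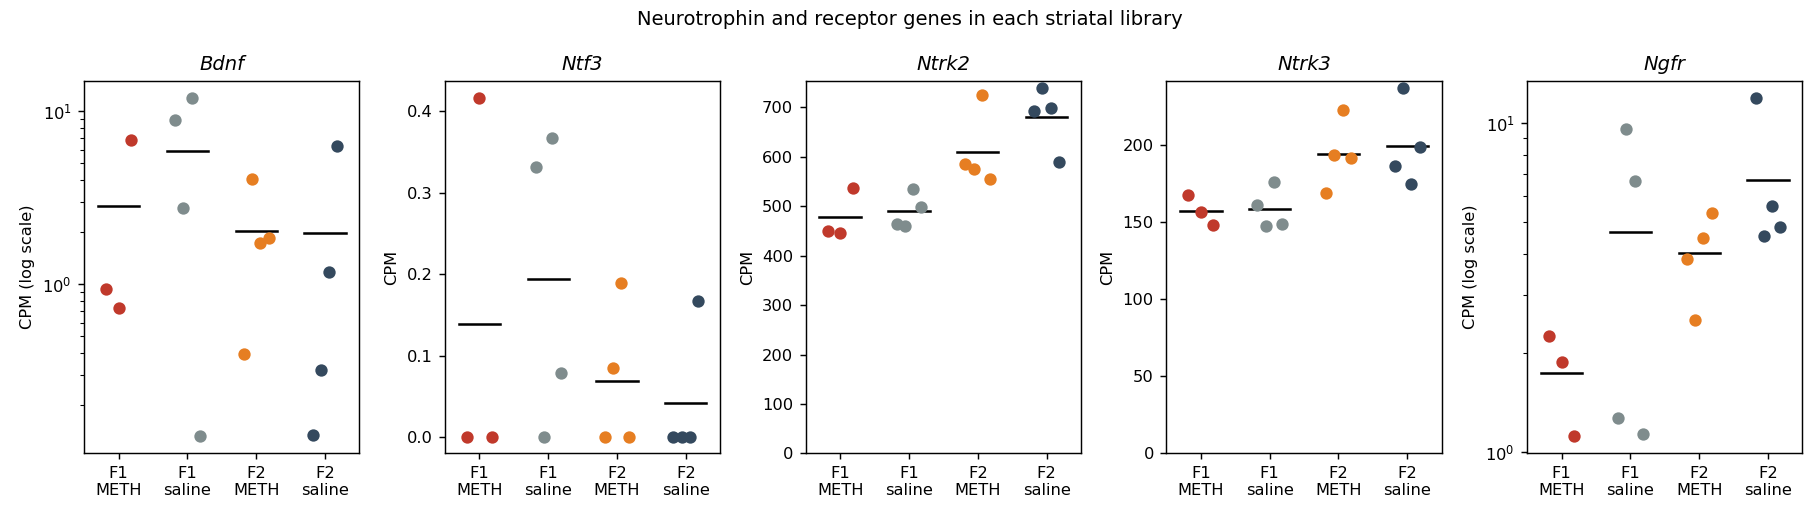
Level of each gene (vertical axis, CPM; log scale for Bdnf and Ngfr, linear for the others) in every library, with the METH group left of the saline group in each generation. Points are single mice in replicate order and black lines are group means; Bdnf and Ngfr spread widely within groups, Ntrk2 and Ntrk3 lie close together, and Ntf3 is at 0 in 8 of 15 libraries.

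The members also split by how much they varied between mice of the same group. The within-group SD of log2 CPM was 2.1 for Bdnf, higher than in 99.7% of 17838 genes, and 0.94 for Ngfr, higher than in 97.0%. Ntf3 had an SD of 1.31, on at most 16 reads in a library. Ntrk2 and Ntrk3 had SDs of 0.14 and 0.15, below the median of 0.19 over all genes.

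Bdnf (gene ID 12064, chromosome 2, 109674700 to 109727043, GRCm38.p6) encodes brain-derived neurotrophic factor. In F1 it was at 0.936, 0.729 and 6.85 CPM in METH libraries 1 to 3, against 8.89, 2.77, 12.0 and 0.132 CPM in saline libraries 1 to 4. METH replicate 3 stood with the high saline libraries, saline replicate 4 was the lowest of all, and the groups overlapped. The F1 log2 fold change, METH over saline, was -1.07 (SE 1.15, adjusted p = 0.994 by edgeR's quasi-likelihood test with Benjamini-Hochberg adjustment), smaller than its own standard error. Without METH replicate 3 it was -2.84 (adjusted p = 0.997), and without saline replicate 3 it was -0.47 (adjusted p = 0.998).

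In F2, Bdnf was at 0.394, 4.09, 1.74 and 1.87 CPM in METH libraries 1 to 4, against 0.135, 0.320, 1.17 and 6.33 CPM in saline libraries 1 to 4. The highest and the lowest library were both saline, so the METH group lay within the saline range. The log2 fold change was 0.041 (SE 0.94, edgeR adjusted p = 1.00), and 0.99 (SE 1.01, adjusted p = 0.923) by limma-voom. It was 1.84 (SE 0.77, adjusted p = 0.550) without saline replicate 4, and below 0 when METH replicate 2 or saline replicate 1, 2 or 3 was left out, down to -0.58. The F2 effect exceeded the F1 effect by 1.10 (SE 1.64, edgeR adjusted p = 1.00 for the interaction), less than its standard error. This difference ran from 0.48 to 2.89 when single libraries were left out.

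No member was called in any comparison. By edgeR, 0 of 18499 genes passed an adjusted p of 0.05 in F1, which is 0%, with 774 genes (4.18%) below an unadjusted 0.05; DESeq2 called 7 genes and limma-voom 3. In F2 edgeR called 0 of 18093 genes, again 0%, with 863 genes (4.77%) below an unadjusted 0.05, and DESeq2 called 9 and limma-voom 1. For the difference between generations 1 of 19308 genes (0.00518%) passed, with 943 (4.88%) unadjusted. Of the members, 0 of 5 passed in F1, 0 of 4 tested in F2 and 0 of 5 for the difference, and none passed with DESeq2 or limma.

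Across mice, Bdnf followed Slc17a7, which encodes the vesicular glutamate transporter VGLUT1 of cortical excitatory neurons. Slc17a7 was at 31.0, 24.0 and 396 CPM in F1 METH libraries, against 322, 98.0, 526 and 9.47 CPM in F1 saline libraries. In F2 it was at 10.8, 130, 75.3 and 67.2 CPM in METH libraries, against 10.5, 9.80, 55.9 and 182 CPM in saline libraries. In both generations the libraries rich in Slc17a7 were those rich in Bdnf, and the 3 libraries lowest in Bdnf had the 3 lowest Slc17a7 levels.

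The correlation of log2 CPM over the 15 libraries, each generation centred on its own mean, was r = 0.981 and rho = 0.971. Each had a permutation p of 1e-05, the smallest that 100000 permutations can give, and 5e-05 after adjustment over the 5 relations computed; this pair was set with earlier results of these data known. Without the 2 libraries farthest from the median of Slc17a7, F1 saline replicate 4 and F2 saline replicate 2, r was 0.975. Within F1 (n = 7) r was 0.988 and rho 0.964 (exact permutation p = 0.000397 and 0.00278), and within F2 (n = 8) r was 0.971 and rho 0.952 (exact permutation p = 0.000149 and 0.00114). The other members did not pass this test over the 15 libraries: r was 0.36 for Ntf3, 0.13 for Ntrk3, 0.042 for Ngfr and -0.0092 for Ntrk2, with adjusted permutation p between 0.575 and 0.973. Within F2 Ntf3 had r = 0.73 on at most 6 reads a library (exact permutation p = 0.0417, adjusted p = 0.104).

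**Figure D2:**
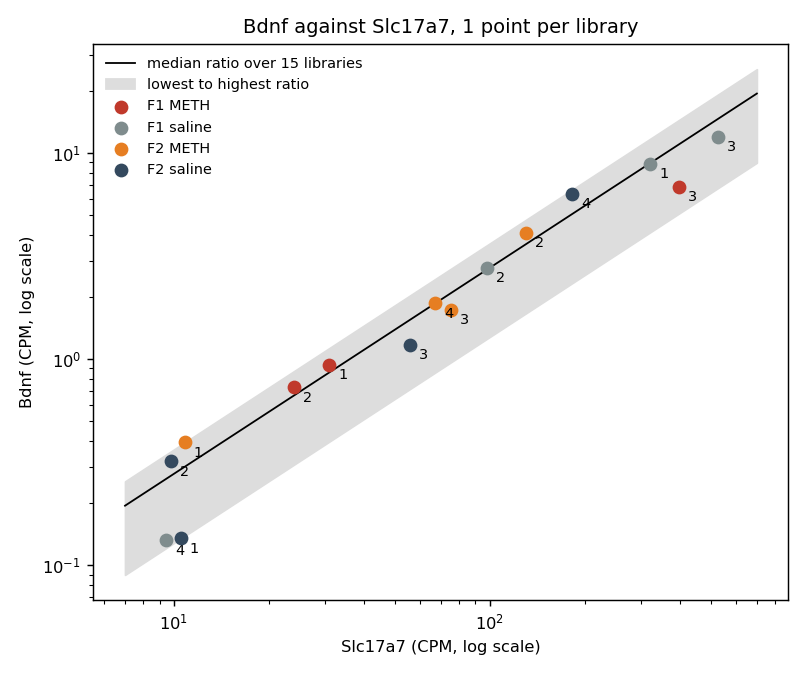
Bdnf (vertical axis, CPM, log scale) against Slc17a7 (horizontal axis, CPM, log scale), with 1 point per library numbered by replicate. The line is the median ratio over the 15 libraries and the grey band runs from the lowest to the highest ratio, 12.8 to 36.4 Bdnf reads per 1000 Slc17a7 reads.

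Expressed as a ratio of reads within a library, which needs no scaling, Bdnf varied far less. There were 30.2, 30.3 and 17.3 Bdnf reads per 1000 Slc17a7 reads in F1 METH libraries, against 27.6, 28.3, 22.7 and 13.9 in F1 saline libraries. In F2 there were 36.4, 31.4, 23.1 and 27.8 in METH libraries, against 12.8, 32.6, 21.0 and 34.7 in saline libraries. The highest ratio was 2.84 times the lowest, whereas Bdnf itself spanned a 90.6-fold range and Slc17a7 a 55.5-fold range. The 2 lowest ratios, in F1 saline replicate 4 and F2 saline replicate 1, rest on 5 Bdnf reads each, with 95% exact (Clopper-Pearson) intervals of 4.49 to 32.8 and 4.14 to 30.2 that cover counting error only. The ratio in F1 METH replicate 3 rests on 227 Bdnf reads, and its interval of 15.1 to 19.7 lies below those of F1 METH replicates 1 and 2, which begin at 20.3 and 20.05.

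The lineages did not differ in this ratio beyond the spread between mice. The mean log2 ratio was higher in METH than in saline libraries by 0.17 in F1 (two-sided exact permutation p = 0.571) and by 0.32 in F2 (p = 0.486), where the smallest p the design allows is 0.0286 in either generation. With Slc17a7 as a covariate in the edgeR model, the Bdnf log2 fold change was -0.11 (SE 0.29, adjusted p = 0.955) in F1 and 0.12 (SE 0.28, adjusted p = 0.996) in F2. Without the libraries above 100 CPM of Slc17a7 it was -0.79 (SE 1.06) in F1 and 1.23 (SE 0.75) in F2. That setting left out METH replicate 3 and saline replicates 1 and 3 in F1. In F2 it left out METH replicate 2 and saline replicate 4.

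The 5 genes whose log2 CPM was most like that of Bdnf over the 15 libraries, among 14971 genes, were Slc17a7 (r = 0.981), Rtn4rl2 (0.975), which encodes a relative of the Nogo receptor, and the transcription factor genes Tbr1 (0.967), Tfap2d (0.964) and Neurod2 (0.953). Tbr1 and Neurod2, like Slc17a7, belong to the list of 16 cortical excitatory neuron markers. These correlations are descriptions, since all genes of a library share its tissue and depth. The 16 markers together summed to between 350 and 1034 CPM in F1 METH and between 371 and 1359 CPM in F1 saline libraries. In F2 they summed to between 332 and 566 CPM in METH and between 323 and 646 CPM in saline libraries. None of the 16 had 0 reads in every library of a group. Of the 16, 2 were higher and 14 lower in F1 METH than F1 saline mice (median log2 fold change -0.40), and in F2 9 were higher and 7 lower (median 0.011). With the mean of these markers in place of Slc17a7, the correlation with Bdnf over the 15 libraries was r = 0.946 (permutation test, adjusted p = 5e-05). The log2 ratio of Bdnf to the marker mean differed between METH and saline libraries by -0.090 in F1 (exact permutation p = 0.971) and by 0.70 in F2 (exact permutation p = 0.4).

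Ntf3 (gene ID 18205, chromosome 6, 126101412 to 126166772) encodes neurotrophin-3 and was close to the detection limit. It had 0, 16 and 0 reads in F1 METH libraries, against 12, 0, 14 and 3 reads in F1 saline libraries. In F2 it had 0, 4, 6 and 0 reads in METH libraries, against 0, 0, 0 and 6 reads in saline libraries. It was at 0 in 8 of 15 libraries, where a count of 0 allows up to 0.0597 to 0.0936 CPM (3 reads), and every group held at least 1 library with reads. It passed the filter on low counts in F1, with a log2 fold change of -0.41 (SE 1.32, edgeR adjusted p = 0.994), and not in F2. A difference between lineages was not detectable at this depth.

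Among the receptors, Ntrk2 (gene ID 18212, chromosome 13, 58806472 to 59133970) was the most abundant. It was at 451, 446 and 536 CPM in F1 METH libraries, against 464, 461, 536 and 498 CPM in F1 saline libraries. The groups overlapped, with means of 478 ± 50.8 and 490 ± 35.03 CPM (SD, n = 3 METH and n = 4 saline), and the log2 fold change was -0.036 (SE 0.098, edgeR adjusted p = 0.994). In F2 it was at 585, 574, 725 and 554 CPM in METH libraries, against 693, 739, 698 and 590 CPM in saline libraries. Of the F2 METH libraries, 3 lay below all 4 saline libraries while METH replicate 3 was the second highest of the 8, and the log2 fold change was -0.16 (SE 0.097, edgeR adjusted p = 0.960). Ntrk2 encodes a full-length TrkB with a kinase and a truncated form without it that is known from astrocytes, and gene-level counts do not separate them. Beside this result, astrocyte markers in F2 had 1 of 12 higher and 11 of 12 lower in METH than saline mice (median log2 fold change -0.17; summed level 4656 to 5217 CPM in METH and 4742 to 6140 CPM in saline libraries), and in F1 10 of 12 were higher and 2 lower (median 0.18; summed level 4661 to 6590 CPM in METH and 4143 to 4696 CPM in saline libraries). Their part in the Ntrk2 values was not tested.

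Ntrk3 (gene ID 18213, chromosome 7, 78179986 to 78581034), encoding TrkC, was at nearly the same level in both lineages. It was at 168, 157 and 148 CPM in F1 METH libraries, against 161, 147, 176 and 149 CPM in F1 saline libraries. In F2 it was at 169, 194, 223 and 191 CPM in METH libraries, against 187, 237, 175 and 199 CPM in saline libraries. The groups overlapped in both generations, and the log2 fold change was -0.0083 (SE 0.087, edgeR adjusted p = 0.996) in F1 and -0.038 (SE 0.10, adjusted p = 0.987) in F2. Both signs turned when certain single libraries were left out. The ratio of Ntrk2 to Ntrk3 TPM was 2.07 ± 0.39 in F1 METH and 2.1 ± 0.10 in F1 saline mice, and 2.34 ± 0.27 in F2 METH and 2.57 ± 0.29 in F2 saline mice (SD).

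Levels of F1 and F2 mice come from separate deposited tables, and generation cannot be told apart from table, so no test compared levels between generations. The SDs and ranges given over all 15 libraries pool both tables, so they are not the spread between mice of a group.

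**Figure D3:**
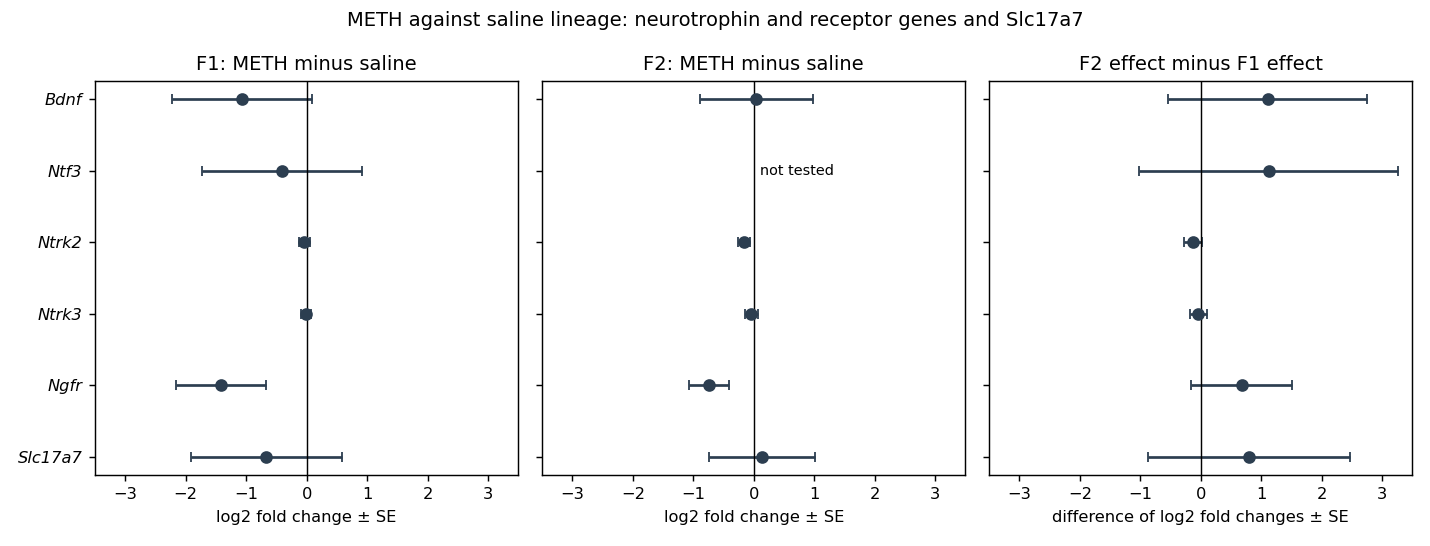
Log2 fold change, METH over saline, of the 5 member genes and Slc17a7 in F1 (left) and F2 (middle), and the F2 effect minus the F1 effect (right); points are edgeR estimates and bars are ± SE. Ntrk2 and Ntrk3 have narrow bars near 0, Bdnf and Slc17a7 have bars wider than their estimates in F1, and Ngfr lies below 0 in both generations.

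Ngfr (gene ID 18053, chromosome 11, 95568818 to 95587698), encoding the p75 neurotrophin receptor, was lower on average in METH than in saline mice of both generations, without passing the adjusted test. In F1 it was at 2.25, 1.87 and 1.12 CPM in METH libraries, against 1.27, 9.60, 6.67 and 1.13 CPM in saline libraries. Saline replicates 2 and 3 stood apart, while saline replicates 1 and 4 lay within the METH range. The F1 log2 fold change was -1.42 (SE 0.75, unadjusted p = 0.0914, edgeR adjusted p = 0.994), and without saline replicate 2 it was -0.81.

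In F2, Ngfr was at 3.86, 2.51, 4.46 and 5.32 CPM in METH libraries, against 11.9, 4.54, 5.59 and 4.83 CPM in saline libraries. Of the 4 METH libraries, 3 lay below every saline library and METH replicate 4 lay among them. The log2 fold change was -0.74 (SE 0.32, unadjusted p = 0.0448, edgeR adjusted p = 0.960), which makes Ngfr the 1 member of 4 below an unadjusted 0.05, where 4.77% of all genes were. Without saline replicate 1 it was -0.31 (unadjusted p = 0.215). The F2 effect minus the F1 effect was 0.67 (SE 0.83, edgeR adjusted p = 1.00). In a fit with 1 METH effect shared by both generations, chosen after seeing the data, the Ngfr log2 fold change was -1.04 (SE 0.42, unadjusted p = 0.0231, adjusted p = 0.962), with 0 of 19308 genes (0%) past the adjusted threshold and 915 (4.74%) below an unadjusted 0.05.

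The genes most like Ngfr over the 15 libraries were Htr7 (r = 0.881), a serotonin receptor gene, Klhl32 (0.876), Igsf1 (0.868), Dgkk (0.856) and Aars (0.833). They were picked by this correlation, so their levels where Ngfr was high are descriptions only. In F1 saline replicates 2 and 3, the libraries highest in Ngfr, Htr7 reached 7.26 and 5.70 CPM, and between 1.66 and 2.71 CPM in the other F1 libraries. Of the neuronal markers named, Calb2 and Ndst4 were high in the same F1 libraries. Calb2, which encodes calretinin, reached 18.3 and 9.85 CPM in these libraries and at most 3.98 CPM in the other 5. Ndst4, of the thalamic or septal list, was at 10.2 and 8.64 CPM there and at most 5.41 CPM in the other F1 libraries. Both were named for an unadjusted edgeR p below 0.05 between the F1 lineages, so their match with Ngfr is a description too. The 8 genes of that list, Ndst4 included, summed to 112 and 94.0 CPM in saline replicates 2 and 3. The sums were 81.1, 116 and 102 CPM in METH replicates 1 to 3, and 93.6 and 77.4 CPM in saline replicates 1 and 4. Zic1, of the same list, was at 21.7 ± 7.09 CPM in F1 METH and 14.9 ± 2.59 CPM in F1 saline mice (SD, log2 fold change 0.55, unadjusted p = 0.0325). In F2 saline replicate 1, the library highest in Ngfr, Igsf1 was at 9.63 CPM, the highest of F2, but Calb2 was at 2.80 CPM and Ndst4 at 3.51 CPM, both below the F2 saline maxima of 10.1 and 12.7 CPM in replicate 4. That library also had the highest sums of F2 for markers of oligodendrocytes (13220 CPM), astrocytes (6140 CPM), microglia (505 CPM), oligodendrocyte precursors (355 CPM), endothelium (258 CPM), pericytes or smooth muscle (222 CPM), fibroblasts (157 CPM) and cholinergic neurons (193 CPM). The part of these markers in its Ngfr level was not tested.

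As lists, 9 of 9 GABAergic interneuron markers, Calb2 among them, were lower in METH than saline mice in each generation (median log2 fold change -0.16 in F1 and -0.078 in F2). They summed to 358 to 421 CPM in METH and 390 to 482 CPM in saline libraries of F1, and to 378 to 408 CPM in METH and 400 to 432 CPM in saline libraries of F2. Thalamic or septal markers were lower in 4 of 8 in F1 (median 0.053; 81.1 to 116 CPM in METH and 77.4 to 112 CPM in saline libraries) and in 8 of 8 in F2 (median -0.22; 91.0 to 107 CPM in METH and 106 to 117 CPM in saline libraries). Among 7 markers of cholinergic neurons, 3 were lower in F1 (median 0.0039) and 5 in F2 (median -0.19). The cholinergic markers summed to 120 to 147 CPM in METH and 99.4 to 170 CPM in saline libraries of F1, and to 147 to 157 CPM in METH and 132 to 193 CPM in saline libraries of F2. No marker of these 3 lists had 0 reads in every library of a group. The part of these lists in the Ngfr values was not tested.

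The receptors Ntrk2 and Ntrk3 each had their own companions. Those of Ntrk2 were Pacsin3 (r = 0.889), Vgll4 (0.844), LOC115489729 (0.833), Mvb12a (0.809) and Castor2 (0.794), and those of Ntrk3 included Gga3 (0.794), Unc79 (0.793), Fstl4 (0.792) and Slc18b1 (0.783). For Ntf3, with 8 libraries at 0, the likeness to Pcdha12 (r = 0.851), Sfmbt1 (0.804), Rnpc3 (0.798), Ttc23 (0.782) and Tmem44 (0.775) rests on few reads. By the same measure Slc17a7 ranked first for Bdnf but 1111th for Ntf3, 4508th for Ntrk3, 6966th for Ngfr and 7596th for Ntrk2.

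Beyond the 5 members, 121 other genes of neurotrophin signalling were examined, the members not included, and 118 were tested. In F1, 4 were higher and 4 lower at an unadjusted p below 0.05, 6.78% of those tested against 4.18% of all genes (2.52% higher and 1.66% lower), and 0 passed the adjusted threshold. In F2, 1 was higher and 2 lower, 2.54% of those tested against 4.77% of all genes (2.11% higher and 2.66% lower), and 0 passed. The median log2 fold changes were -0.035 in F1 and 0.0058 in F2.

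Among 18 tested genes of proneurotrophin processing and transport, 7 were higher and 11 lower in F1 METH mice, and 8 higher and 10 lower in F2 METH mice. Sorcs3, a sorting receptor related to sortilin, was at 30.8, 24.1 and 28.9 CPM in F1 METH libraries, against 52.5, 48.7, 42.8 and 37.2 CPM in F1 saline libraries. Its F1 groups did not overlap, but the log2 fold change of -0.70 (SE 0.14, unadjusted p = 0.000705) had an edgeR adjusted p of 0.994, and in F2 it was 0.091 (SE 0.12). Mmp9, a protease that can cleave proBDNF, was at 0.342 ± 0.072 CPM in F1 METH and 0.645 ± 0.18 CPM in F1 saline mice (SD), with an unadjusted p of 0.0393. Its F2 log2 fold change was -0.37 (SE 0.43).

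Of 13 partners of p75, 3 were higher and 10 lower in F1 METH mice (median log2 fold change -0.11), and 8 higher and 5 lower in F2 METH mice (median 0.0068). With Slc17a7 as a covariate the F1 split was 5 higher and 8 lower. Without the libraries above 100 CPM of Slc17a7 it was 3 higher and 10 lower, as in the main fit. Both were computed after seeing the data. Of 48 Trk adaptors and kinases, 26 were higher and 22 lower in F1, and 22 higher and 26 lower in F2. In F1 the adaptor gene Shc4 was at 8.11 ± 1.48 CPM in METH and 5.99 ± 0.52 CPM in saline mice, and Dok5 at 13.0 ± 2.22 CPM in METH and 16.9 ± 1.58 CPM in saline mice (unadjusted p = 0.0221 and 0.0232). In F2 Mapk7, encoding the kinase ERK5, was at 21.2 ± 0.94 CPM in METH and 17.3 ± 3.37 CPM in saline mice, and the adaptor gene Irs1 at 9.81 ± 1.01 CPM in METH and 11.9 ± 1.21 CPM in saline mice (unadjusted p = 0.0370 and 0.0291). After edgeR's adjustment the p of Shc4, Dok5, Mapk7 and Irs1 was at least 0.960. In the other generation the log2 fold changes were smaller: -0.080 for Shc4 and -0.032 for Dok5 in F2, and 0.081 for Mapk7 and 0.016 for Irs1 in F1.

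Of 19 regulators of the Bdnf gene, 9 were higher and 10 lower in F1 METH mice and 13 higher and 6 lower in F2 METH mice. Bhlhe40, a repressor of transcription, was at 47.3 ± 10.6 CPM in F1 METH and 35.8 ± 2.83 CPM in F1 saline mice. Dnmt3a, encoding a DNA methyltransferase, had 196 ± 4.81 CPM in F1 METH and 172 ± 12.7 CPM in F1 saline mice (unadjusted p = 0.0426, and 0.0214 for Bhlhe40). The histone deacetylase gene Hdac4 was at 45.1 ± 4.98 CPM in F2 METH and 53.0 ± 5.40 CPM in F2 saline mice (unadjusted p = 0.0369). None of these passed after adjustment. In the other generation the log2 fold changes were 0.0076 for Bhlhe40 and 0.069 for Dnmt3a in F2, and -0.067 for Hdac4 in F1.

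Of 18 genes that BDNF is known to induce, 1 was higher and 17 were lower in F1 METH mice (median log2 fold change -0.18, against a median of -0.0035 over all 18499 genes), and 9 were higher and 9 lower in F2 METH mice (median 0.017). In F1, 1 of the 18 was below an unadjusted edgeR p of 0.05, where 4.18% of all genes were, and 0 passed the adjusted threshold. Genes measured in the same mice are not independent replicates, so the split was not tested. With Slc17a7 as a covariate the F1 split was 2 higher and 16 lower, and without the libraries above 100 CPM of Slc17a7 it was 3 higher and 15 lower. Both were computed after seeing the data. The second setting left out F1 METH replicate 3 and F1 saline replicates 1 and 3, so it rests on fewer mice per lineage. Fos, an immediate early gene, was at 19.7, 6.56 and 14.7 CPM in F1 METH libraries, against 32.4, 33.9, 10.7 and 44.3 CPM in F1 saline libraries. Saline replicate 3, which the second setting above left out, lay within the METH range. The F1 log2 fold change of Fos was -1.15 (SE 0.48, unadjusted p = 0.0424, edgeR adjusted p = 0.994), and in F2 it was 0.23 (SE 0.25). Many of these genes are also known to respond to other signals. Over all genes, 49.1% were higher in F1 METH mice and 49.5% in F2 METH mice.

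**Figure D4:**
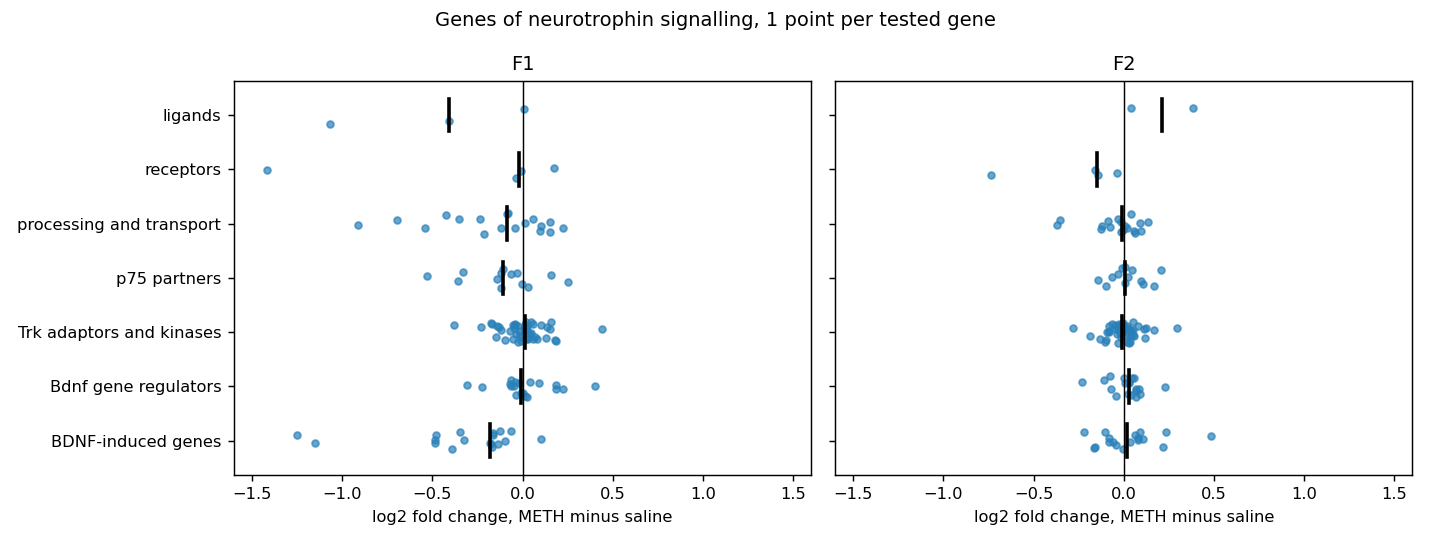
Log2 fold change, METH over saline (horizontal axis), of every tested gene in 7 lists of neurotrophin signalling in F1 (left) and F2 (right), 1 point per gene, with black bars at list medians. The BDNF-induced genes lie mostly below 0 in F1 (17 of 18) and evenly about 0 in F2 (9 of 18 lower). Points of a list come from the same mice and are not independent, and the vertical scatter within a list is for visibility only.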

How the data were processed

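RNA of 15 striatal libraries was analysed from 1 deposited gene table per generation, whose columns give counts, FPKM and TPM of 45777 features. The deposited counts, whole numbers with unequal totals, served as raw counts. TPM are the authors' values and were used to compare levels between genes, while FPKM values deposited by the authors were left out. Per the submitters' processing notes the tools were bcl2fastq 2.20.0 and Trimmomatic, the aligner HISAT2 2.1.0 and the assembler StringTie 2.1.3b, with build mm10. Whether counting used strand is not given in the sources used here. Reads of the antisense genes that overlap Bdnf (1), Ntrk2 (3) and Ntrk3 (2) therefore cannot be told apart from theirs. Column names gave the sample of all 45 value columns.

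Counts of all genes entered edgeR 4.0.16 (TMM, glmQLFit, glmQLFTest) under R 4.3.3, after filterByExpr at a minimum count of 10. Each table was fitted separately, and generations were compared through an interaction term over 15 libraries; a gene was called at a Benjamini-Hochberg adjusted p below 0.05. The standard error is the size of the log2 fold change divided by the root of the F statistic. Alternatives were DESeq2 1.42.0, limma 3.58.1 (voom, and trend on log2 TPM with pseudocounts of 1 and 0.1), other filters and scalings, Slc17a7 as a covariate, leaving out libraries, and a replicate block. Correlations used log2 CPM with a prior count of 2 and permutations within generations. Tests were checked on simulated data. Python 3.11.15 and scipy 1.17.1 were used, and figures were drawn with matplotlib 3.10.9. Positions and promoters are RefSeq's, build GRCm38.p6; Ntrk3 had no promoter entry in the table used. Of 21 replicate pairs, 0 agreed within sampling noise (chi-square per degree of freedom 15.0 to 60.4).

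The members, the 20 gene lists (7 of signalling, 13 of cell type markers) and the tests were chosen with earlier results of these data known. Named genes were the members, Ntf5 and Slc17a7, up to 4 genes per list with an unadjusted p below 0.05 in either generation, and the 5 genes most correlated with each member, predicted genes, clones and pseudogenes left out. Marker genes were given as list summaries, apart from Slc17a7, Tbr1, Neurod2, Calb2, Ndst4 and Zic1. Some genes these rules name are not reported here.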

Additional observations from a re-analysis of the deposited data

Results flagged for a closer look

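Of 30 gene and group combinations examined for a library far from the others of its group, 3 stood out, where chance gives about 1 in 20, or 1.5. Bdnf was at 6.33 CPM in F2 saline replicate 4, against 0.135 to 1.17 CPM in the other 3 F2 saline libraries; the same library had the highest Slc17a7 level of F2, at 182 CPM. Ntf3 was at 0.167 CPM (6 reads) in F2 saline replicate 4 and at 0 in the other 3 F2 saline libraries. Ngfr was at 11.9 CPM in F2 saline replicate 1, against 4.54 to 5.59 CPM in the other 3 F2 saline libraries.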

How the results depend on the processing

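Over 283 recomputed member values, 263 kept their direction, 20 turned, and 0 passed the adjusted threshold (smallest adjusted p 0.264). The F1 Ntrk3 log2 fold change was 0.0046 with Slc17a7 as a covariate and 0.13 without libraries above 100 CPM of Slc17a7, and the Ntrk3 difference was 0.018 in both fits on TPM. The F1 Bdnf ratio to the cortical marker list in place of Slc17a7 was -0.090, and the F2 ratio was 0.70, against 0.32 to Slc17a7. The correlation of Ntrk2 with Slc17a7 was 0.22 on TPM and 0.097 with the marker list, and without centring that of Ntrk3 was -0.15 and that of Ngfr -0.11. Leaving out 1 library at a time, F1 values ran from -5.82 to 0.13 for Ntf3 (where a group at 0 makes the fitted value depend on the prior count), from -0.13 to 0.011 for Ntrk2 and from -0.056 to 0.046 for Ntrk3. F2 values ran from -0.58 to 1.84 for Bdnf and from -0.11 to 0.055 for Ntrk3, the Ntrk3 difference from -0.11 to 0.059, and the F1 Bdnf ratio from -0.054 to 0.44. Correlations ran from -0.14 to 0.14 for Ntrk2, from -0.00052 to 0.41 for Ntrk3 and from -0.16 to 0.18 for Ngfr, and from 0.977 to 0.985 for Bdnf. The cause of these turns was not tested. Counts of genes called in F1 were 7 (DESeq2), 3 (limma-voom) and 1 (both TPM fits, without libraries above 100 CPM of Slc17a7, and 1 fit of all 15 libraries), and 0 to 2 with 1 library left out. In F2 they were 9 (DESeq2), 1 (limma-voom) and 1 (without libraries above 100 CPM of Slc17a7), and 0 to 1 with 1 library left out. For the difference, with 1 call in the main setting, they were 4 (DESeq2), 0 with a mean CPM filter of 1, limma-voom, both TPM fits, the covariate or without libraries above 100 CPM of Slc17a7, and 0 to 2 with 1 library left out. METH and saline libraries of the same replicate number did not deviate together. Of these pairs, 1 of 7 had a correlation above 0.1 (range -0.062 to 0.40) and 1 of 7 correlated best with its own number. Replicate numbers were therefore not used as pairs in the main fits. They are not the animal numbers of the labels, which were not examined in this way. With the replicate block, the Bdnf log2 fold change was -1.90 in F1 (adjusted p = 0.264) and 0.77 in F2 (adjusted p = 0.991), their difference 2.63 (SE 1.10, unadjusted p = 0.0389, adjusted p = 0.722), and the difference had 0 calls. The F2 Bdnf value was 0.99 by limma-voom, 0.20 on TPM + 1, 0.71 on TPM + 0.1 and 1.23 without libraries above 100 CPM of Slc17a7. Few mice per group, 5 Bdnf reads in the lowest libraries and 0 to 16 Ntf3 reads limit what these values can show.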

Other observations

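Marker lists not set beside a member above gave the following counts, METH against saline. In F1, 12 of 14 spiny projection, 10 of 10 oligodendrocyte, 5 of 6 oligodendrocyte precursor, 7 of 8 microglial, 7 of 8 endothelial, 8 of 8 pericyte or smooth muscle, 7 of 8 fibroblast and 4 of 5 tested choroid plexus or ependymal markers were higher. In F2 the numbers higher were 12 of 14, 1 of 10, 1 of 6, 0 of 8, 3 of 8, 5 of 8, 1 of 8 and 2 of 6 in the same order, and 0 of these markers passed the adjusted threshold in either generation.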
